A study of Mus musculus with 15 samples.

Results

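Regulatory T cells (Treg) with a constitutively active Notch1 were compared with Treg that carried only the Cre recombinase. The comparison used 8 of the 15 arrays of the series, chosen by their titles, with 4 arrays in each group, and covered 19752 genes. Both groups carried the Foxp3EGFPCre allele, in which a fusion of green fluorescent protein and Cre is made in cells that express Foxp3. The control group carried this allele alone (arrays 2, 3, 4 and 5). The N1c group also carried R26N1c/N1c, 2 copies of an allele at the Rosa26 locus from which Cre releases expression of the intracellular part of Notch1 (arrays 1, 2, 4 and 5). Spleens came from male mice aged 6 weeks. Cells with green fluorescence that also bore CD4, CD3 and TCR beta were sorted on a MoFlo after those bearing CD8, B220, CD11b, CD11c or Gr1 had been gated out. Mice were pooled for each sort, and RNA of 40000 to 50000 cells was amplified for an Affymetrix Mouse Gene 1.0 ST array. The other 7 arrays, from Treg without Rbpj and from Treg with both changes, served to estimate the spread between arrays.

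Notch receptors are cut when they bind a ligand on a neighbouring cell, and the intracellular part then enters the nucleus and joins the DNA-binding protein RBPJ. There it turns on genes such as those of the Hes and Hey repressors. Part of its action does not need RBPJ and runs through other signalling proteins. Treg restrain immune responses, depend on the transcription factor Foxp3, and exist as resting cells that recirculate and as effector cells that make inhibitory cytokines and enter tissues.

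The sorted cells had the markers their label requires. Across the 8 arrays the intensity of Foxp3 lay between 4018 and 5331 and that of Il2ra, the high-affinity receptor chain for interleukin 2, between 5869 and 7064. The B cell gene Cd79a lay between 23.7 and 36.3 and the NK cell gene Ncr1 between 17.1 and 22.1, where the median gene had 107.5 in control arrays. Cd8b1 lay between 369 and 621 in these arrays. The median intensity per array ran from 107.1 to 115.7, and the 8 arrays correlated with each other at 0.982 to 0.997 across genes. Arrays 2, 4 and 5 of the groups varied together (r = 0.417, 0.341 and 0.497 across genes between their deviations from the group means) and were also compared within pairs. Some arrays of unlike number varied together as well: N1c 1 with control 2 and 3 (r = 0.371 and 0.318) and N1c 2 with control 3 (r = 0.35). The remaining combinations of unlike number lay between -0.426 and 0.109. Among arrays 1, 2 and 3 the number thus does not single out a pair. On each array RNA of a mixed population was read, so that fewer cells of a type and less RNA per cell cannot be told apart.

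Notch1 (transcript cluster 10481056) had intensities of 1459, 1582, 1019.8 and 1044 on N1c arrays 1, 2, 4 and 5 and of 1443, 1367, 1374 and 836 on control arrays 2, 3, 4 and 5. The groups overlapped, and the log2 change was 0.03 ± 0.18 (SE, adjusted p = 1). Whether the probes of this cluster read the transgene is not given in the sources used here, so this value does not check the genotype. Rbpj lay at 489 to 572 in N1c and 470.3 to 571 in control arrays. Foxp3 lay at 4018 to 4865 and 4761 to 5331, a change of -0.20 ± 0.12 (adjusted p = 0.843).

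At an adjusted p under 0.05, 326 genes were called, 1.65% of those compared. Of these, 185 rose in N1c (0.937%) and 141 fell (0.714%). The rises were larger than the falls: 14 genes rose by at least 2 on the log2 scale and 0 fell by as much, and the extremes were 4.00 and -1.56. Genes that rose started from a median control intensity of 206.1, against 415.9 for those that fell and 107.5 for all genes. For 317 of the 326 the 4 N1c and 4 control arrays did not overlap, which held for 5.73% of all genes (2.90% higher and 2.83% lower in N1c). Within the 3 pairs, 325 of the 326 changed in 1 direction, against 32.6% of all genes. Both counts follow largely from the calls, which were made on the same arrays, and are no separate check of them. A call survived the loss of any single array for 183 genes, 120 that rose and 63 that fell, and the number called was lowest, at 217, without control 4. The falls numbered 80, 79 and 83 without control 2, 3 and 4. A fit with the pair number as a random effect called 584 genes (2.96%), and one within the 3 pairs alone called 388 (1.96%). The fit within pairs had 2 residual and 7.01 prior degrees of freedom, so its standard errors came mostly from the variance shared over genes.

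**Figure D1:**
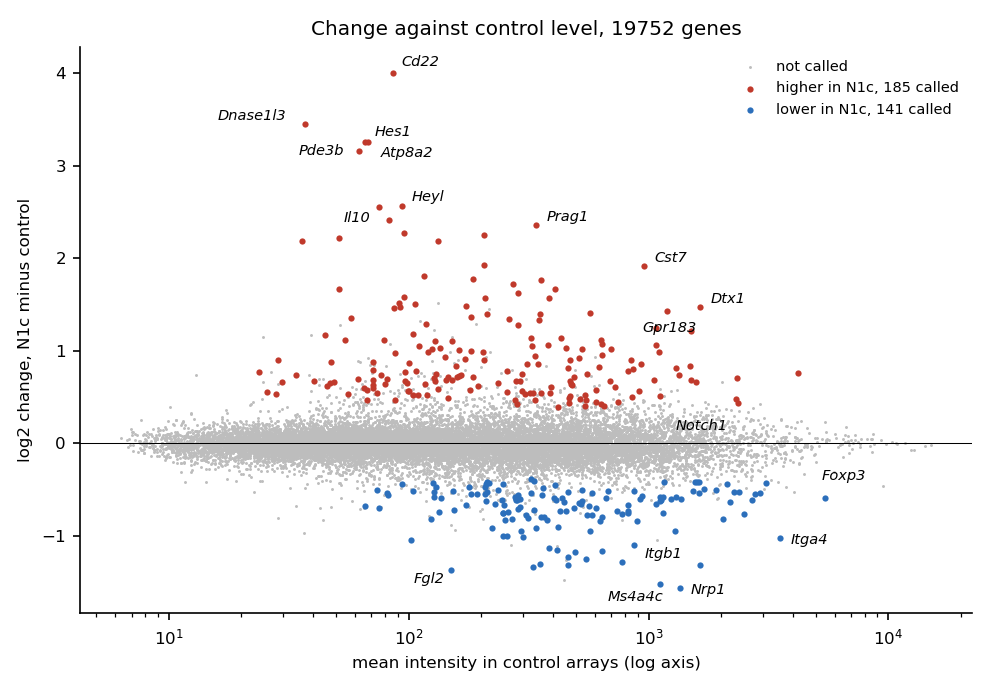
Log2 change between N1c and control (vertical) against the geometric mean intensity in control arrays (horizontal, log axis) for each of 19752 genes. Red points are the 185 genes that rose and blue points the 141 that fell at an adjusted p under 0.05; the genes with the largest rises lie at low control intensity, and Nrp1, Ms4a4c and Itga4 among the falls lie near or above 1000.

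Known Notch targets were called in both directions, with the larger changes upward. Of 18 compared, 7 rose and 2 fell, and the median change of the list was 0.066, against -0.0063 for all genes. Of all genes 0.937% rose and 0.714% fell, the shares beside which the counts of this and the later lists stand. The lists were chosen with earlier results of these data known, so these counts do not test a family of genes. Hes1, a repressor and the best known target, read 457, 412, 1064 and 764 on N1c arrays 1, 2, 4 and 5 and 68.0, 55.1, 67.9 and 72.7 on the control arrays. Every N1c array was thus far above every control array, yet N1c 4 was far above N1c 1 and N1c 2 (log2 change 3.25 ± 0.24, adjusted p = 2.83e-07). Heyl, a related repressor, was steadier, at 624, 479.5, 585 and 538 against 82.6, 98.6, 102 and 91.7 (log2 change 2.57 ± 0.11, adjusted p = 6.24e-11). Hey1 was as steady, at 454, 423, 452 and 518 against 92.0, 79.3, 100.2 and 112 (log2 change 2.27 ± 0.12, adjusted p = 2.07e-09). Nrarp, which feeds back on the Notch complex, went from 68.1 to 114 in control to 156 to 329 in N1c arrays, a log2 change of 1.47 ± 0.22 (adjusted p = 0.000851). Dtx1, the Deltex ubiquitin ligase, was already bright in control arrays at 1242 to 2001 and reached 3742 to 5284, a change of 1.47 ± 0.21 (adjusted p = 0.000471). Hey2 remained dim, at 38.4 to 61.8 against 26.8 to 34.9. Its rise of 0.66 ± 0.14 (adjusted p = 0.0191) was not called without N1c 4 or 5 or control 2 or 3 (adjusted p = 0.0631 to 0.0838, and 0.00257 to 0.106 over all alternatives). Hes5, Ptcra, Notch3 and Gata3, further listed targets that act in development of T cells, were not called.

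Bcl2, a survival gene on the same list, fell by 0.61 ± 0.11, from 2585 to 2756 to 1634 to 1966 (adjusted p = 0.00309). Myc, which drives growth, fell by 0.54 (adjusted p = 0.0496), and this call was lost without N1c 1, 2, 4 or 5 or control 2, 3 or 4 (adjusted p = 0.0612 to 0.174, and 0.000969 to 0.303 over all alternatives). Il2ra, also a listed target, changed by -0.0046.

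The sequence bound by RBPJ is commonly given as TGGGAA. It was searched on both strands in windows from 250 bases before to 50 bases after each annotated start site (RefSeq, GRCm38.p6). Windows were available for 15483 of the 19752 genes compared, 144 of the 185 that rose and 109 of the 141 that fell. Of the 65 genes that rose by 1 or more on the log2 scale, 42 had a window. The Notch targets Hes1, Hey1 and Heyl had none and are not part of these shares. TGGGAA occurred in 24.0% of 19019 windows of the genes compared, 26.3% of 190 windows of genes that rose and 17.6% of 148 windows of genes that fell. With the longer GTGGGAA, which contains the first motif, the shares were 6.1%, 9.5% and 4.7%. For changes of 1 or more in size on the log2 scale, TGGGAA occurred in 13 of 53 windows of genes that rose (24.5%). It occurred in 4 of 16 windows of genes that fell by as much. GTGGGAA occurred in 2 (3.8%) and 0 of these windows. Among genes that rose, the larger changes thus did not have the larger share with either motif. Among genes that fell, they had the larger share with TGGGAA, on only 16 windows, and the smaller with GTGGGAA. The windows of Cd22, the gene with the largest rise, and of Hey2, a Notch target with a pair of matches, are printed to show where the letters lie, in capitals (TTCCCA is the motif on the opposite strand). Each runs 5′ to 3′ in the direction of the gene. Cd22 lies at chr7:30878979-30879278, minus strand, with the match starting at position -145 relative to the start site. Hey2 lies at chr10:30842734-30843033, minus strand, with matches at -207 and -3.
Cd22: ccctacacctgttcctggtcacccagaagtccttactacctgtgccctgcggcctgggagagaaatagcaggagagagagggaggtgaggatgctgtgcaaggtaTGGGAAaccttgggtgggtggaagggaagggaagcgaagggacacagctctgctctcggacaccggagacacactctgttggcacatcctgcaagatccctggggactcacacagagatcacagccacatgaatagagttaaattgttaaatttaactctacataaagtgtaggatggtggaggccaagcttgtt
Hey2: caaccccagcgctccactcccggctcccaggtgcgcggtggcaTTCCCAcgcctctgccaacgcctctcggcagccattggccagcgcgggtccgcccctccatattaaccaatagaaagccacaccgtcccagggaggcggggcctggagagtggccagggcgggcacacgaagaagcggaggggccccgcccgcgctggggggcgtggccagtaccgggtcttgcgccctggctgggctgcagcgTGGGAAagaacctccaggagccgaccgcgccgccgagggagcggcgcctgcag
No match occurred in the windows of Dtx1, Nrarp, Ffar1, Nrp1 or Itgb1. These are letters in a window and were not measured as binding.

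The Notch machinery itself held 1 call. Of 34 receptors, ligands, processing enzymes and cofactors, 1 rose and 0 fell, with a median of -0.018 (0.0033 with cyclic loess). That 1 was Aph1b, a subunit of the gamma-secretase that cuts Notch, which went from 69.3 to 93.5 to 99.7 to 167 (log2 change 0.69 ± 0.14, adjusted p = 0.0122). Its call was lost without control 3 or 4 (adjusted p = 0.0533 to 0.0599, and 0.00167 to 0.144 over all alternatives, with 0.128 in the fit within pairs). The fit within the 3 pairs called 0 rises and 2 falls on this list, the receptor Notch2 (-0.60 ± 0.094, adjusted p = 0.0124 against 0.12 with all arrays) and Lfng, which modifies Notch receptors with sugar (-0.61 ± 0.11, adjusted p = 0.0222 against 0.126).

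**Figure D2:**
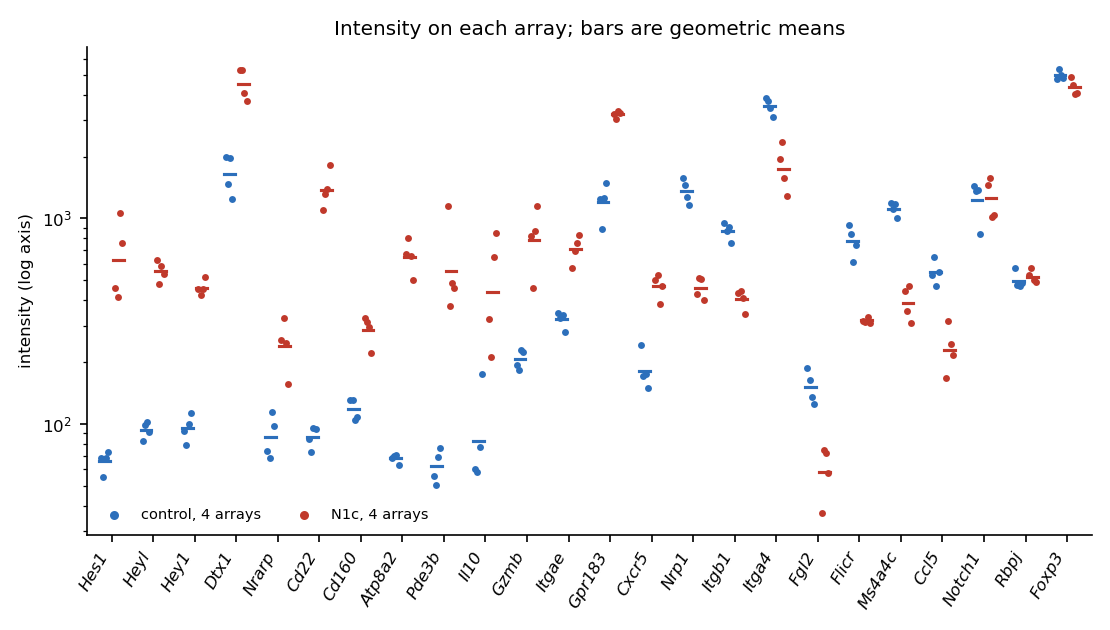
Intensity (log axis) of named genes on each control array (blue, numbers 2, 3, 4 and 5 from left to right) and each N1c array (red, numbers 1, 2, 4 and 5), with bars at the geometric means. Arrays of the groups are apart for Notch targets, Cd22, Nrp1 and the integrin chains and overlap for Notch1, Rbpj and Foxp3.

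Surface receptors that set the threshold of lymphocyte responses held the largest single rise. Of 35 co-stimulatory and co-inhibitory receptors, 3 rose and 1 fell (median 0.0085), and within the 3 pairs 5 rose, with Lag3 and Slamf7 added. Cd22, an inhibitory lectin that binds sialic acid, read 1095, 1312, 1390.2 and 1814 on N1c and 84.2, 72.6, 95.3 and 94.3 on control arrays, a 16.0-fold difference (log2 change 4.00 ± 0.16, adjusted p = 6.24e-11). Cd160, a receptor for the ligand HVEM, went from 105 to 131 to 222 to 328 (log2 change 1.28 ± 0.15, adjusted p = 5.04e-05). Slamf6, which binds itself on other lymphocytes, went from 2136 to 2859 to 3328 to 4579 (0.70 ± 0.12, adjusted p = 0.00358), and Cd200r1, the inhibitory receptor for CD200, fell from 319 to 413 to 188 to 226 (-0.80 ± 0.14, adjusted p = 0.00309). Cd22 is best known from B cells, so other B cell genes were read beside it. Of 17 B cell markers compared, the others that rose comprised only Pou2af1, a B cell coactivator (118 to 151 to 169.6 to 215, 0.59 ± 0.12, adjusted p = 0.00977). The summed intensity of the 16 markers other than Cd22 was 1548 to 1896 in N1c and 1588 to 1874 in control arrays, and the defining genes Cd79a and Ms4a1 reached at most 36.3 and 35.8 on any of the 8 arrays.

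The Treg identity list had its larger calls among falls. Of 25 compared, 1 rose and 5 fell, and the median change was -0.20. Within each of the 3 pairs 12 were lower in N1c (17.2% of all genes were) and 5 were higher (15.4% of all genes). Nrp1, a semaphorin receptor that marks Treg formed in the thymus, read 427, 514, 509 and 403 on N1c and 1569, 1458, 1279 and 1163 on control arrays. The groups were well apart, with the highest N1c array below the lowest control array (log2 change -1.56 ± 0.12, adjusted p = 4.17e-07). Flicr, a noncoding RNA transcribed beside Foxp3, went from 614 to 929 to 311 to 332 (log2 change -1.28 ± 0.13, adjusted p = 1.24e-05), while Foxp3 next to it was not called. Fgl2, a secreted suppressive protein, went from 125 to 186 to 37.0 to 74.5 (-1.37 ± 0.18, adjusted p = 0.000274). Ikzf4, the factor Eos that works with Foxp3, fell by 0.59 (adjusted p = 0.0113). That call was lost without control 2 or 3 (adjusted p = 0.0506 to 0.0556, and 0.000132 to 0.161 over all alternatives, with 0.0562 in the fit within pairs). Socs2, a brake on cytokine signals, fell by 0.60 (adjusted p = 0.0392), a call lost without N1c 1, 4 or 5 or control 2, 3, 4 or 5 (adjusted p = 0.0635 to 0.137, and 0.00311 to 0.191 over all alternatives). Il2ra, Ctla4, Ikzf2, Tnfrsf18 and Icos were not called.

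All calls among effector Treg genes were rises. Among 21 compared, 4 rose and 0 fell, with a median of 0.21. For 9 of them all N1c arrays lay above all control arrays, against 2.90% of all genes, and for 1 they lay below, against 2.83%. The mean was higher in N1c for 13 of the 21 (47.8% of all genes), and the lowest change was -0.46. The inhibitory cytokine gene Il10 read 322, 212, 649 and 848 on N1c and 60.4, 58.1, 77.1 and 174 on control arrays, a log2 change of 2.41 ± 0.39 (adjusted p = 0.00172). Its values spread widely in both groups, and arrays 4 and 5 were the highest of each. Itgae, the integrin chain that binds E-cadherin on epithelium, was tighter, at 575 to 833 against 279.8 to 347 (1.14 ± 0.14, adjusted p = 0.000136). Fasl, the ligand that triggers death through Fas, went from 75.7 to 112 to 212 to 334 (1.52 ± 0.16, adjusted p = 1.38e-05). With the pair number as a random effect 7 of the list rose. Lag3, a receptor for MHC class II, was called in the fit within pairs (0.45 ± 0.094, adjusted p = 0.0484) and not in the fit of all arrays (adjusted p = 0.143).

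Genes of resting and central T cells had a median of -0.25 over 15 compared, and 4 fell while 2 rose. Besides Bcl2, the falls were those of Bach2, a repressor of effector genes (-0.57 ± 0.12, adjusted p = 0.0155), Il7r, the receptor for interleukin 7 (-0.55 ± 0.11, adjusted p = 0.0105), and S1pr1, the receptor for exit from lymphoid organs (-0.52 ± 0.11, adjusted p = 0.0189). The call of Bach2 was lost without N1c 5 or control 2, 3 or 4 (adjusted p = 0.0521 to 0.0601, and 0.000955 to 0.129 over all alternatives). That of Il7r was lost without control 3 (adjusted p = 0.0539, and 0.00564 to 0.0807 over all alternatives, with 0.0654 in the fit within pairs). That of S1pr1 was lost without N1c 4 or 5 or control 2 or 3 (adjusted p = 0.0615 to 0.0884, and 0.0012 to 0.115 over all alternatives). Actn1, an actin crosslinker, rose from 1177 to 1434 to 2141 to 2558 (0.81 ± 0.12, adjusted p = 0.000951), and Lef1, a factor of naive T cells, rose by 0.43 (adjusted p = 0.0357). The call of Lef1 was lost without N1c 1 or 5 or control 2, 3 or 4 (adjusted p = 0.0943 to 0.152, and 0.00387 to 0.161 over all alternatives, with 0.0785 in the fit within pairs). Within the 3 pairs Igfbp4 was called as a further fall (-0.80 ± 0.10, adjusted p = 0.00427 against 0.144 with all arrays). Ccr7, a defining homing receptor of resting cells, was not called.

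Cytotoxic granule genes moved in both directions. Of 20 compared, 6 rose and 2 fell (median 0.08). The protease gene Gzmb, which is also a listed Notch target, read 825, 459.9, 866 and 1154 on N1c and 194, 184, 229 and 223 on control arrays. N1c 2 was the lowest of its group and still lay above the 4 control arrays (log2 change 1.93 ± 0.25, adjusted p = 0.000227). Perforin, Prf1, went from 125 to 161 to 182 to 322 (0.72 ± 0.14, adjusted p = 0.0096). That call was lost in the fit within the 3 pairs, with an adjusted p of 0.0713. It was also lost in a fit of the 8 arrays alone (adjusted p = 0.0675) and without the pair of number 4 (adjusted p = 0.0586). The alternatives ranged from 0.000314 to 0.0713. Gzma rose by 0.90 ± 0.17 from a dim level of 24.9 to 32.4 to 33.3 to 64.0. Ctsw, cathepsin W of killer cells, fell from 424 to 504 to 176 to 247 (-1.22 ± 0.15, adjusted p = 0.000139), and Sytl2, a linker of granules to the membrane, from 385 to 531 to 154 to 219.8 (-1.31 ± 0.14, adjusted p = 1.92e-05). The chemokine gene Ccl5, of the same cell types, fell from 469 to 650.2 to 166 to 317 (-1.25 ± 0.24, adjusted p = 0.00813). Some of these genes are also markers of other killer cells. Of 9 CD8 T cell markers Nkg7 and Runx3 rose and Ccl5 fell, and the summed intensity of the list was 2802 to 3408 in N1c and 2101 to 2644 in control arrays, which do not overlap. Without Nkg7, Runx3 and Ccl5 the sum was 757 to 1006 in N1c and 784 to 1038 in control arrays, which overlap. The defining CD8 genes Cd8a and Cd8b1 were not called (log2 change 0.26 and -0.21). Of 11 NK markers Gzma and Prf1 rose, and the summed intensity was 509 to 668 in N1c and 436 to 544 in control arrays. Without Gzma and Prf1 the sum was 259 to 349 in N1c and 263 to 356 in control arrays. The defining gene Ncr1 lay at 17.1 to 22.1 on all 8 arrays. The genes left out of the shorter CD8 and NK sums were the called ones, so overlap of the rest was largely set by that choice. The part of such cells in the changes of granule genes was not tested. Nkg7 and Serpinb6b, also on the granule list, rose by 1.14 and 0.64 (adjusted p = 0.0407 and 0.0162). The call of Nkg7 was lost without N1c 1, 2, 4 or 5 or control 4 or 5 (adjusted p = 0.0619 to 0.148, and 0.00248 to 0.257 over all alternatives), and that of Serpinb6b without N1c 1 or 5 or control 2 or 4 (adjusted p = 0.0538 to 0.0712, and 0.00507 to 0.144 over all alternatives).

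Receptors that place T cells in tissue were called in both directions. Of 22 chemokine and positioning receptors, 4 rose and 2 fell (median 0.018). Gpr183, the oxysterol receptor EBI2 that draws cells to the edge of follicles, read 3226, 3043, 3348 and 3270.5 on N1c and 1248, 889, 1251 and 1491 on control arrays. The N1c values lay close to each other and above all control values (log2 change 1.42 ± 0.14, adjusted p = 7.83e-06). Cxcr5, the follicle homing receptor, went from 149 to 242 to 382 to 528 (log2 change 1.37 ± 0.21, adjusted p = 0.000851). Gpr15, a receptor for homing to the large intestine, went from 122 to 128 to 188 to 301 (1.02 ± 0.13, adjusted p = 0.000147). Ccr4, which serves homing to skin, went from 1143 to 1530.5 to 1828 to 2558 (0.74 ± 0.14, adjusted p = 0.00813). Ccr6, the receptor for CCL20, fell from 295 to 346 to 145 to 208 (-0.81 ± 0.13, adjusted p = 0.00141).

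Among 23 integrin subunits, Itgae was the only one called as a rise, and both chains of the integrin VLA-4, Itga4 and Itgb1, fell. Itga4 read 1941, 2358, 1567 and 1285 on N1c and 3856, 3738, 3468 and 3102 on control arrays, a change of -1.02 ± 0.16 (adjusted p = 0.00137). Itgb1 read 433, 444, 408 and 341 against 950.4, 867, 908 and 759, a change of -1.10 ± 0.15 (adjusted p = 0.00029). In both genes array 5 had the lowest value of its group. The list median was -0.029, and Itgb7, the other partner of Itga4 and the partner of Itgae, was not called with all arrays. Within the 3 pairs it differed by -0.52, -0.56 and -0.35 and was called as a fall (-0.48 ± 0.097, adjusted p = 0.0446 against 0.389 with all arrays).

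Cytokine receptor chains were called in both directions. Of 35 chains, 2 rose and 4 fell (median -0.056). Il12rb2, the signalling chain for interleukin 12, went from 41.4 to 53.1 to 82.4 to 125 (1.17 ± 0.15, adjusted p = 0.000251), whereas Il18r1, the receptor for interleukin 18, went from 556 to 718 to 250.4 to 373 (-1.16 ± 0.16, adjusted p = 0.00047). Both belong to the Th1 program. Il1r2, a decoy receptor for interleukin 1, rose from 70.0 to 86.5 to 135 to 246 (1.12 ± 0.17, adjusted p = 0.000757). Ifngr2, a chain of the interferon gamma receptor, fell by 0.60 ± 0.12 (adjusted p = 0.00978), and Il4ra fell by 0.58 (adjusted p = 0.0152), a call lost without N1c 5 or control 2, 3 or 4 (adjusted p = 0.0544 to 0.0697, and 0.000537 to 0.13 over all alternatives). Of 29 cytokines and chemokines, 3 rose and 1 fell (median 0.052). Csf1, the macrophage growth factor, went from 248 to 269 to 390.2 to 513 (0.78 ± 0.15, adjusted p = 0.00654). Il4 rose by 0.53 at a dim level of 67.9 to 99.6 (adjusted p = 0.0229), and this was lost without N1c 1 or 5 or control 2, 3 or 4 (adjusted p = 0.0588 to 0.0977, and 0.00507 to 0.11 over all alternatives, with 0.084 in the fit within pairs). Ifng, Il17a, Il21 and Tgfb1 were not called.

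Of 58 transcription factors of T cells, 7 rose and 3 fell (median 0.024). Nfil3, a factor of type 2 and innate lymphocytes, went from 179.7 to 241 to 299 to 544 (0.99 ± 0.20, adjusted p = 0.0101). Id2, which blocks E proteins, went from 714 to 1012 to 1163 to 1658 (0.79 ± 0.13, adjusted p = 0.0029), and Tcf12, 1 of those E proteins, from 1506 to 1595 to 2271 to 2672 (0.67 ± 0.089, adjusted p = 0.000253). Ahr, a receptor for aryl hydrocarbons, went from 306 to 346 to 454 to 479 (0.54 ± 0.091, adjusted p = 0.00245). Runx3, a factor of CD8 and Th1 cells, rose by 0.75 (adjusted p = 0.0324), a call lost without N1c 1, 4 or 5 or control 2, 3 or 4 (adjusted p = 0.0583 to 0.126, and 0.000987 to 0.126 over all alternatives). Myb rose by 0.71 (adjusted p = 0.0294), lost without N1c 1, 4 or 5 or control 2, 3 or 4 (adjusted p = 0.0584 to 0.13, and 0.00233 to 0.198 over all alternatives). Without N1c 1, control 2, control 3 or control 4 the rises numbered 4, and the falls numbered 0 without control 2 or control 3 and 1 without N1c 5 or control 4. The lineage factors Tbx21, Gata3 and Bcl6 were not called.

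Among signalling and transport genes, single members of a family changed strongly. Pde3b, a phosphodiesterase that breaks down cyclic AMP, read 1148, 375, 484 and 456 on N1c and 55.4, 50.6, 68.8 and 76.5 on control arrays. N1c 1 was far above the other N1c arrays, and all N1c arrays lay above all control arrays (log2 change 3.16 ± 0.25, adjusted p = 4.84e-07). It was the only 1 of 24 genes of the cyclic AMP pathway to be called with all arrays, while Pde8a and Ptger2 were also called, as falls, within the 3 pairs (adjusted p = 0.0402 and 0.0372 against 0.412 and 0.43 with all arrays), and the median of the list was -0.13. Atp8a2, a flippase that moves phospholipids to the inner leaflet, read 675, 799, 653 and 500.2 against 68.5, 70.1, 70.3 and 63.2, with the smallest adjusted p of the named genes (3.25 ± 0.12, adjusted p = 2.59e-11). Another flippase, Atp10d, fell from 1068 to 1093 to 616 to 740.3 (-0.66 ± 0.088, adjusted p = 0.000252), and the other 15 of 17 flippases and scramblases were not called.

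Abcb1a, the drug efflux pump P-glycoprotein, went from 362 to 448 to 1159 to 1421 (1.66 ± 0.13, adjusted p = 4.84e-07). Slc16a5, a monocarboxylate transporter, went from 58.9 to 87.0 to 285 to 597 (2.55 ± 0.18, adjusted p = 1.25e-07), and Slc43a1, an amino acid transporter, from 139 to 199.7 to 297 to 371 (1.01 ± 0.15, adjusted p = 0.000559). The mitochondrial carrier Slc25a24 fell from 282 to 424 to 96.2 to 189 (-1.30 ± 0.19, adjusted p = 0.000566). Cst7, a cystatin that inhibits cathepsins in granules, read 3199 to 3773 in N1c and 778 to 1185 in control arrays (1.92 ± 0.16, adjusted p = 9.85e-07), and its protease partner Lgmn, legumain, 480.4 to 643 and 193 to 238 (1.39 ± 0.13, adjusted p = 3.87e-06). The NAIP genes, sensors of bacterial proteins for the inflammasome, were called as rises: Naip5 from 162 to 228 to 563 to 679 (1.78 ± 0.13, adjusted p = 2.83e-07) and Naip6 from 187 to 269 to 526 to 690.1 (1.57 ± 0.16, adjusted p = 1.58e-05). Naip2 rose by 0.55 (adjusted p = 0.034), a call lost without N1c 1, 2, 4 or 5 or control 3, 4 or 5 (adjusted p = 0.0584 to 0.131, and 0.00626 to 0.187 over all alternatives, with 0.0585 in the fit within pairs). Of 21 inflammasome genes 3 rose and 0 fell, of 25 solute carriers 2 rose and 1 fell, of 19 ABC transporters 2 rose and 1 fell, and of 24 lysosomal proteases and inhibitors 2 rose and 1 fell. Among all genes 0.937% rose and 0.714% fell. The NAIP genes are near-identical copies whose probes may share signal, and Nlrc4, Pycard and Casp1, their partners, were not called. Within the 3 pairs, the inflammasome genes Aim2 and Nod1 were called as falls (-0.61 ± 0.097 and -0.53 ± 0.097, adjusted p = 0.0143 and 0.0268 against 0.912 and 0.139 with all arrays), and Casp4 in place of Naip2 as a rise (0.93 ± 0.093, adjusted p = 0.00112 against 0.0842 with all arrays).

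**Figure D3:**
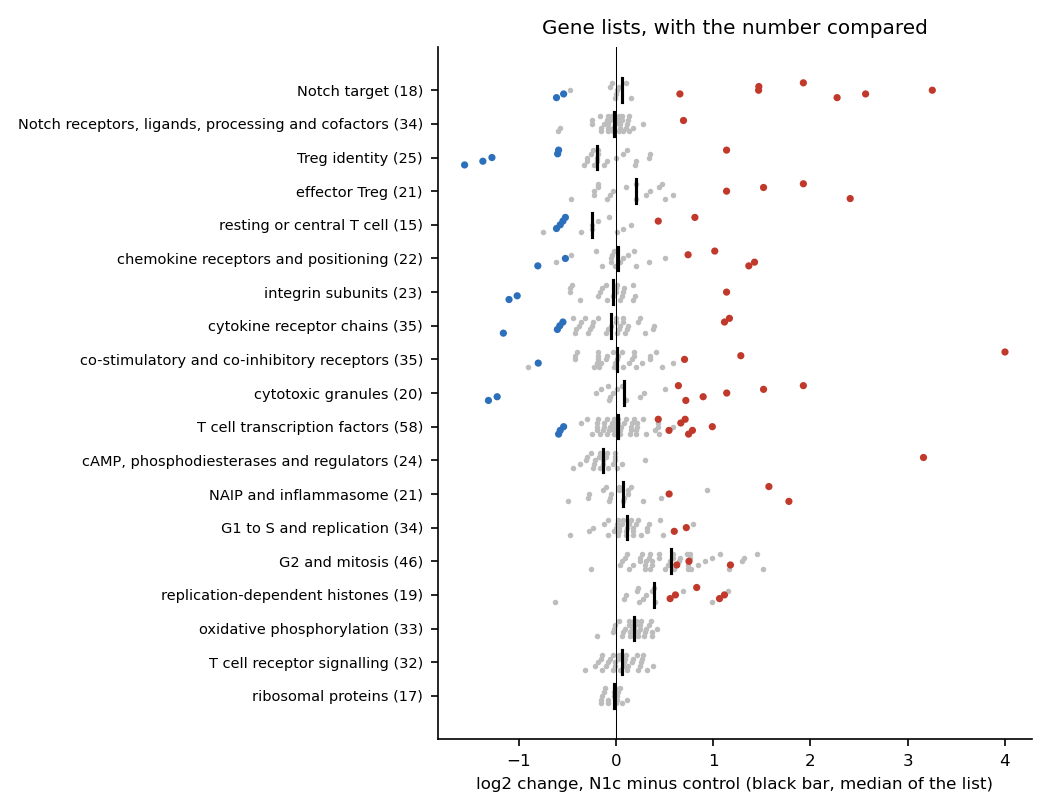
Log2 change between N1c and control for each member of selected gene lists, with the number of members compared after each name. Coloured points passed an adjusted p of 0.05 (red rose, blue fell), grey points did not, and black bars are list medians; the median of the mitotic list stands at 0.57 with 3 coloured points.

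Several of the largest changes fell outside the lists. Dnase1l3, a secreted nuclease, read 565, 329.8, 312 and 465 on N1c and 39.8, 35.1, 34.2 and 39.9 on control arrays (log2 change 3.45 ± 0.18, adjusted p = 2.7e-09). Gjb2, the gap junction protein connexin 26, went from 115 to 144 to 449 to 821 (2.18 ± 0.15, adjusted p = 7.77e-08). Marcks, a membrane substrate of protein kinase C, went from 30.8 to 46.9 to 115 to 235 (2.18 ± 0.18, adjusted p = 6.54e-07). Fhdc1, a formin, read 334, 306, 106 and 302 on N1c and 59.4, 53.2, 42.8 and 52.0 on control arrays, with N1c 4 far below the other N1c arrays and above the controls (log2 change 2.21 ± 0.25, adjusted p = 5.04e-05). Further rises were those of Prag1, a pseudokinase (5.12-fold), Atp6v0d2, a subunit of the proton pump (3.49-fold), Slc45a4 (3.41-fold), the potassium channel gene Kcnj16 (3.17-fold) and Tgm2, transglutaminase 2 (3.00-fold). Their adjusted p ran from 7.77e-08 for Kcnj16 to 0.00131 for Atp6v0d2.

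Among the falls outside the lists, L1cam, an adhesion molecule of neurons, went from 304 to 369 to 104 to 166 (-1.34 ± 0.14, adjusted p = 1.53e-05). The peptide hormone gene Rln3 read 772, 590.1, 843 and 506 on N1c and 2279, 2345, 1238 and 1112 on control arrays, and the controls split into arrays 2 and 3, which were high, and arrays 4 and 5, which were lower, though above every N1c array (log2 change -1.31 ± 0.23, adjusted p = 0.00309). Prg4, lubricin, fell 2.22-fold, Ddhd2, a phospholipase, 2.18-fold, Raph1, lamellipodin, 2.00-fold and B3gnt5, a glycolipid synthase, 1.89-fold. Igf1r, the receptor for insulin-like growth factor 1, fell from 743 to 1153 to 412 to 619.5 (-0.84 ± 0.16, adjusted p = 0.00651). Other falls were of listed genes. Of 14 genes of the Ms4a family 2 fell and 0 rose. Among them Ms4a4c, a membrane protein of the CD20 family, went from 1000.3 to 1186 to 311 to 467 (-1.52 ± 0.12, adjusted p = 4.17e-07). Eno3, an enolase, went from 457 to 647 to 270.2 to 383 (-0.77 ± 0.13, adjusted p = 0.00334) and was the only called gene of 22 in glycolysis.

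Most genes of G2 and mitosis were higher in N1c within every pair, and how many were called depended on whether the pairs were used. Of 46 genes of G2 and mitosis, 45 had a higher mean in N1c (47.8% of all genes did), 39 were higher within each of the 3 pairs (15.4% of all genes were), and the list median was 0.57. The fit of all arrays called 3 of them, all rises, 0 of them without N1c 1 or without N1c 5, 1 without control 4 and 7 without N1c 4. The fit within the 3 pairs called 22 as rises (1.10% of all genes) and 0 as falls (0.866%), and the fit with pair number as a random effect called 19 as rises (1.60%) and 0 as falls (1.36%). With 2 residual degrees of freedom, the adjusted p of the fit within pairs rest mostly on the variance shared over genes. The summed intensity of the list was 10513, 9400, 6811 and 9255 on N1c arrays 1, 2, 4 and 5 and 6744, 6999, 5099 and 5243 on control arrays 2, 3, 4 and 5. N1c 4 lay below control 3 by this sum, while within each number the N1c array was the higher. Mki67, the proliferation marker Ki-67, differed by 1.04, 1.03 and 1.80 on the log2 scale in pairs 2, 4 and 5 (1.29 ± 0.15 within pairs, adjusted p = 0.00295, against 0.137 in the fit of all arrays). Ccnb2, a mitotic cyclin, differed by 1.20, 1.98 and 1.75 (1.64 ± 0.14, adjusted p = 0.000568 against 0.0578). Ccna2, the cyclin of S and G2 phase, differed by 0.94, 1.59 and 2.31 (1.61 ± 0.21, adjusted p = 0.00491 against 0.193). Kif11, a motor of the spindle, differed by 0.88, 1.14 and 2.17 (1.39 ± 0.21, adjusted p = 0.0108 against 0.129). The 3 genes called with all arrays were Ube2c, Cenpf and Cks2, which rose by 1.18, 0.62 and 0.75. The call of Ube2c was lost without N1c 1 or 5 (adjusted p = 0.0511 to 0.0558, and 0.00252 to 0.142 over all alternatives). That of Cenpf was lost without N1c 1, 2 or 5 or control 3, 4 or 5 (adjusted p = 0.0788 to 0.169, and 0.00151 to 0.171 over all alternatives), and that of Cks2 without N1c 1, 4 or 5 or control 2 or 4 (adjusted p = 0.0557 to 0.143, and 0.00158 to 0.163 over all alternatives).

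Genes of the step from G1 into S phase had a smaller median, 0.11 over 34 compared, with 2 rises and 0 falls. Cdkn2c, an inhibitor of the G1 kinases, went from 142 to 174 to 242 to 300.4 (0.72 ± 0.11, adjusted p = 0.00057). Of 19 histone genes expressed with DNA replication 5 rose and 0 fell, and the median was 0.39. H2bc14 read 2034, 984, 1311 and 1376 on N1c and 726, 804, 491 and 573 on control arrays (1.11 ± 0.19, adjusted p = 0.00309). Without N1c 1, control 4 or control 5, taken 1 at a time, 1 histone gene was called. Histone genes are near-identical in sequence and their probes may share signal.

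**Figure D4:**
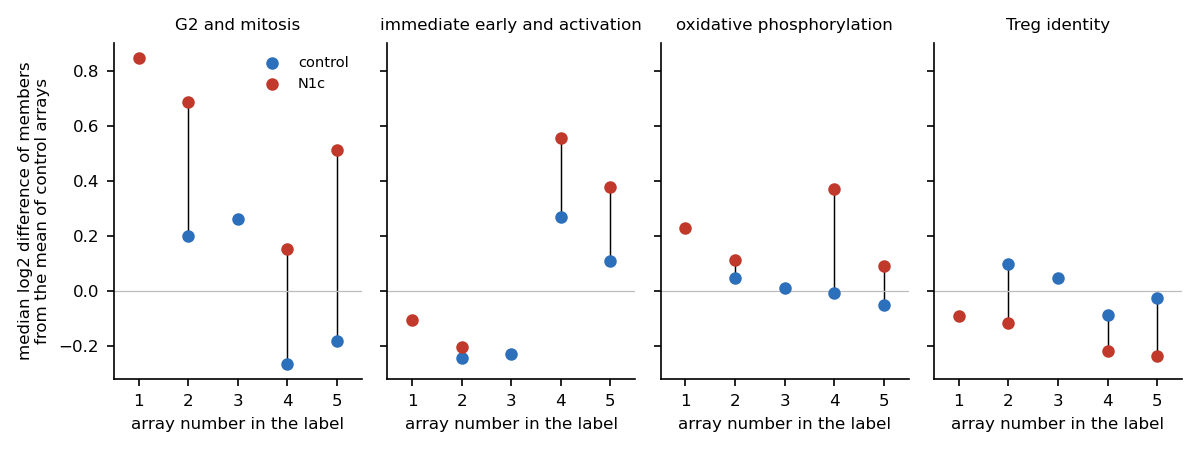
Median over the members of 4 gene lists of the log2 difference from the mean of the control arrays (vertical), by array number in the label (horizontal), for N1c (red) and control (blue), with lines joining arrays of the same number. For G2 and mitosis the N1c array is above the control array of the same number in all 3 pairs although both fall from number 2 to number 4, and for immediate early genes arrays 4 and 5 of both groups are above arrays 2.

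Immediate early genes, which respond within minutes to receptor signals and to handling of cells, varied with array number in both groups. The median log2 difference of 27 such genes from the control mean was -0.20, 0.56 and 0.38 on N1c arrays 2, 4 and 5 and -0.24, 0.27 and 0.11 on control arrays 2, 4 and 5. The median change between the groups was 0.21, and 23 of the 27 had a higher mean in N1c (47.8% of all genes did). Within each of the 3 pairs 13 were higher (15.4% of all genes) and 2 lower (17.2%). The limma fit of all arrays called 0 of the 27, and 3 had an unadjusted p under 0.05 (8.21% of all genes did). Within pairs 2 were called, Fos (0.62 ± 0.11, adjusted p = 0.022 against 1 with all arrays) and Egr2 (0.52 ± 0.10, adjusted p = 0.0366 against 0.307). Fos differed by 0.40, 0.65 and 0.81 within pairs 2, 4 and 5.

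Oxidative phosphorylation genes had small differences, most of them upward. Of 33 compared, 29 had a higher mean in N1c, and for 8 of these the arrays of the groups did not overlap (2.90% of all genes were non-overlapping and higher). The median was 0.19, and within pairs it was 0.099, 0.46 and 0.034 for numbers 2, 4 and 5. The limma fit called 0 of the 33, and 6 had an unadjusted p under 0.05. PI3K, Akt and mTOR genes had a median of -0.11, with 7 of 31 higher, 0 called with all arrays and 4 with an unadjusted p under 0.05. Within the 3 pairs the kinase gene Sgk1 was called as a rise and Ddit4, an inhibitor of mTOR, as a fall (0.65 ± 0.11 and -0.69 ± 0.098, adjusted p = 0.0163 and 0.0079 against 0.0515 and 0.653 with all arrays). The lists of T cell receptor signalling, interferon response, sterol synthesis, ER stress, NF-kB, DNA methylation and Polycomb, adenosine and ribosomal proteins also held 0 calls in the fit of all arrays, with medians between -0.066 and 0.06 and 0 to 5 members at an unadjusted p under 0.05. Markers of monocytes and macrophages, neutrophils, dendritic cells, erythroid cells, platelets and thymocytes held 0 calls as well in that fit, with 0 to 3 members at an unadjusted p under 0.05, and their summed intensities overlapped between the groups. Within the 3 pairs the calls on these lists were the falls of Tet3 and Cbx7 (adjusted p = 0.0299 and 0.0475 against 0.812 and 0.0787 with all arrays), of the DNA methylation and Polycomb list, and the rise of Dntt, a thymocyte marker (adjusted p = 0.0422 against 0.0884).

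Some called genes lay beside each other on a chromosome. In the order of measured genes, 22 pairs of called genes were direct neighbours, and 42 of the 325 called genes with a known place, 12.9%, were part of such a pair. Whether 325 called among 19735 placed genes would give as many such pairs by their number alone was not tested. In 21 of the 22 the neighbours moved the same way, 18 up and 3 down. Of the 19713 neighbouring pairs of all genes, called or not, 52.4% shared a sign, and no such share was taken for called genes apart. Nrp1 lay next to Itgb1 on chromosome 8, and both fell. Cd22 lay next to Ffar1, a fatty acid receptor gene, on chromosome 7, which rose from 38.1 to 56.4 to 76.0 to 101 (0.88 ± 0.13, adjusted p = 0.000499). Gpr183 lay next to Gpr18, another receptor gene, on chromosome 14, which rose from 616 to 852 to 1095 to 1659 (1.02 ± 0.14, adjusted p = 0.000283). Abcb1a on chromosome 5 had called genes on both sides, its own copy Abcb1b (0.52) and Rundc3b (1.39 ± 0.14), whose annotated region overlaps that of Abcb1a. The call of Abcb1b was lost without N1c 1, 2 or 4 or control 3 or 4 (adjusted p = 0.0703 to 0.121, and 0.00103 to 0.202 over all alternatives, with 0.17 in the fit within pairs). Id2 and Rnf144a on chromosome 12 were the exception, at 0.79 and -0.60. Pairs of copies, such as Tubb2a with Tubb2b, 2 beta-tubulin genes that rose 3.09-fold and 4.76-fold, may share probe signal. In 4 of the 22 pairs, that of Rundc3b and Abcb1a included, the annotated regions overlap, and there the signal of the neighbours cannot be told apart. Around the Rosa26 locus on chromosome 6, where the N1c allele was inserted, 0 of the 40 nearest measured genes were called, with log2 changes from -0.34 to 0.61, and 3 had an unadjusted p under 0.05 in limma.

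**Figure D5:**
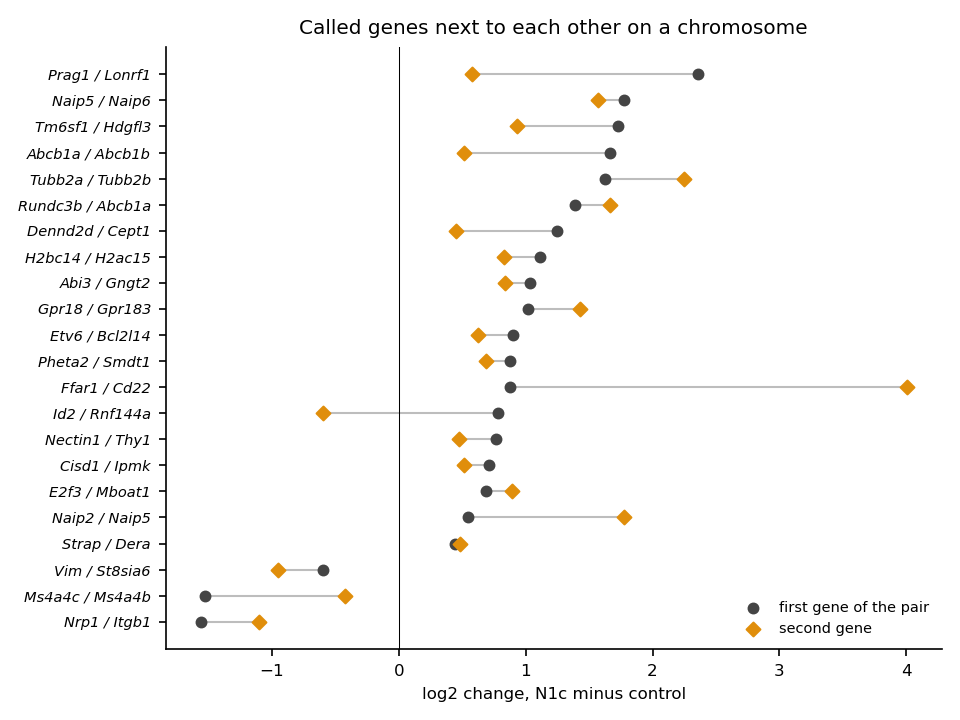
Log2 change between N1c and control (horizontal) for both genes of each of the 22 pairs of called genes that are direct neighbours in the order of measured genes. In 21 pairs both points lie on the same side of 0, and Id2 with Rnf144a is the exception.

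The other genotypes of the series share the spread estimate but not these calls, and their means are given beside those above. Cd22 had a geometric mean of 86.1 in control, 1379.7 in N1c, 65.9 in Treg without Rbpj and 143 in Treg with active Notch1 and without Rbpj, the last sorted on a FACSAria in place of a MoFlo. In the same order, Hes1 had 65.5, 626, 65.2 and 78.3, and Atp8a2 had 68.0, 648, 69.5 and 79.1. Nrp1 had 1358, 461, 1541 and 1348. For these 4 genes the mean with both changes lay nearer to control than to N1c. Others lay nearer to N1c: Ccr4 had 1334, 2229, 1568 and 1988, Bcl2 had 2691, 1759, 2503 and 1813, and Lgmn had 213, 559, 596 and 803. On the log2 scale the mean with both changes was nearer to control for 242 of the 326 called genes and nearer to N1c for 84 (28 of the 185 that rose and 56 of the 141 that fell). These genes were called from the control and N1c arrays, and no test was made of the difference from them.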

How the data were processed

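Splenic Treg of N1c and control mice were read on 4 and 4 arrays. Per the submitters' processing notes, the authors used Affymetrix Power Tools and RMA, and the deposited values are linear intensities per transcript cluster. Versions, annotation release and filters were not given in the sources used here. RMA subtracts background and makes the arrays' distributions alike, so a shift of all genes cannot be seen. The table held 24922 features with values from 5.61 to 18029.7. Of these, 21425 named 1 gene, and the brightest feature was kept for the 921 genes with several, which left 19752. No gene was removed for low intensity.

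The intensities were converted to log2, and limma 3.58.1 (R 4.3.3) fitted 1 mean for each of the 4 groups over the 15 arrays (11 residual and 6.15 prior degrees of freedom). P-values are two-sided, adjusted by Benjamini-Hochberg over the 19752 genes, with a threshold of 0.05, and reflect only the spread between arrays, each from pooled mice. The fit was tested on simulated data in which arrays varied independently. The simulation lacked the variation shared by arrays of the same number, so it does not check the p-values in that respect. Means are geometric, and changes are differences of mean log2 values with their standard error (SE, n = 4 and 4). Numbers were taken to pair arrays where each correlation of same-numbered arrays exceeded 0.1. N1c 1 and control 3 have no partner of the same number and drop out of the fit within pairs.

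Named genes are Notch1, Rbpj and Foxp3, the 25 largest rises and 25 largest falls among called genes whose arrays do not overlap, and called members of 53 gene lists; predicted genes were skipped. Genes named as neighbours, and members of lists called only within pairs or not called, were chosen after their values were seen. The members and lists were chosen with earlier results of these data known. Alternatives were other sets of arrays, the pairing, normalization, array weights, filters on dim genes, the choice of probe set, the variance model and an added offset of 32. The number of arrays limits the precision.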

Additional observations from a re-analysis of the deposited data

Results flagged for a closer look

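Of 234 groups of 4 arrays checked gene by gene, 14 held an array set apart from the other 3 by Dixon's criterion, and chance alone gives about 1 in 20. Array 5 accounted for 7 of these. On control 5, Notch1 read 836 against 1367 to 1443 on the other controls, Prg4 read 609 against 347 to 377, St8sia6 read 1444 against 1243 to 1249 and Slamf6 read 2859 against 2136 to 2225. On N1c 5, Cst7 read 3199 against 3713 to 3773, Il4ra read 767 against 899 to 928 and Tnfrsf25 read 390.0 against 496 to 519. On control 2, Rbpj read 571 against 470 to 483, Naip6 read 269 against 187 to 195 and Il4 read 51.8 against 57.1 to 57.9. On N1c 4, Fhdc1 read 106 against 302 to 334. On N1c 2, Gzma read 33.3 against 57.8 to 64.0. On N1c 1, H2bc3 read 1137 against 682 to 741. On control 4, Tcf12 read 1506 while the other 3 control arrays held the identical value 1595.4.

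Features that name no single gene were not part of the comparison of genes. In a fit of all features 23 without a gene and 14 with several genes were called. The largest changes without a gene were those of feature 10471555 (1.30), feature 10512827 (1.00), feature 10600901 (-1.13) and feature 10345791 (-0.99), as log2 changes between N1c and control. What they transcribe was not analysed here.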

How the results depend on the processing

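Against 326 called genes (185 higher and 141 lower in N1c), array weights gave 733 (362 and 371), pair number as a random replicate block 584 (316 and 268), and a fixed replicate block over all 15 arrays 494 (285 and 209). That last block also ties arrays of groups whose numbers did not pair. The fixed block of the 8 arrays gave 388, of which 255 were among the 326, and the random block shared 322. Without the pair of number 2 there were 184 (58 lower), without that of number 4, 197 (72 lower). Leaving out 1 array at a time gave 217 to 314 genes, with 134 to 169 higher and 79 to 145 lower. The cause of these differences was not tested; fewer arrays alone lower the power. Without the pair of number 5 there were 246 (140 and 106). The other alternatives kept the 3 counts within 1.5 times, from 283 with the 8 arrays alone to 395 with cyclic loess.

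Of the 114 named genes called, 69 were called under every alternative that included them (at most 22) and 33 lost the call when 1 array was left out. Over the 2496 alternatives of these genes 2202 kept direction and call, 294 lost the call and 0 changed direction. Of the named genes not called, Notch1 changed sign in 5 alternatives (-0.16 to 0.18), Rbpj in 1 (-0.014 to 0.13) and Foxp3 in 0. Besides the genes so described in the text, neither replicate block of the 8 arrays changed the call of a gene named there. With the random block the lists of T cell receptor signalling, adenosine, oxidative phosphorylation, ER stress and interferon response held 1 call each in place of 0, and 7 cytokine receptor chains fell in place of 4. List medians moved by less than the spread between arrays in 1124 of 1166 cases. The medians of 21 of the 53 lists, between -0.12 and 0.066 with all arrays, changed sign in at least 1 alternative, Notch targets, Notch machinery, chemokine receptors, co-receptors and cytokines among them. With both arrays of 1 number left out, Rln3, Ccl5, Igf1r, Ccr4, Eno3, Ifngr2, Nfil3, Pou2af1, Prf1, Slamf6 and Rnf144a each lost their call at least once (adjusted p = 0.0505 to 0.148). Gzma and Prf1 lost it in a fit of the 8 arrays alone (adjusted p = 0.058 and 0.0675).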
